A study of Mus musculus with 103 samples.

Results

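Transcript levels of 33 genes for lysosomes and autophagy were examined in muscle stem cells of C57BL/6 mice of different ages. The genes were taken by symbol from the deposited expression tables, and each of the 33 was found once in both, among 43283 genes of the bulk table and 43282 of the table of single wells. They comprise 5 proteins of the lysosomal membrane, 12 lumenal enzymes and cofactors, 2 transcription factors, 3 proteins that start autophagosome formation, 5 proteins of the conjugation machinery, and 6 genes for the ATG8 family and its cargo receptor. Bulk RNA was sequenced from 3 young, 2 middle-aged (12 and 13 months) and 3 old (24 months) mice, all untreated, with 1 library per mouse. For the young bulk mice the age field of the labels says 3 months and the description 2 months. Single wells came from 1 old mouse (24 months, 31 wells) and 1 young mouse (3 months, 64 wells). The labelled source is muscle stem cells, whereas the design text speaks of myoblasts. They describe a culture in medium with fibroblast growth factor, and whether RNA was taken before or after that culture is not given in the sources used here, nor is a sort gate.

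Lysosomes are acidic organelles in which hydrolases break down material delivered by endocytosis and by autophagy. In autophagy a double membrane closes around cytoplasm or damaged organelles, and small ubiquitin-like proteins of the ATG8 family, the LC3 and GABARAP proteins, are attached to its lipid by the conjugation machinery. The closed autophagosome then fuses with a lysosome. The transcription factors TFEB and TFE3 turn on many of these genes together, through an E-box motif in their promoters. Muscle stem cells lie quiescent in adult muscle, and basal autophagy is known to help keep them so, with less autophagic turnover in aged mouse cells.

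Levels are given in TPM, a unit of transcript abundance, which are corrected for transcript length and sum to the same total in each library. Between 12849 and 17114 genes were at 1 TPM or more per bulk library, and read depth cannot be taken from such values. Among genes averaging 5 TPM or more, 39.1% had a listed 0 in 1 or more libraries, so such a 0 is not read as absence. The stem cell label was checked on 12 markers, Pax7 and Myf5 among them. Their summed level was 1574.46 to 2326.22 TPM in old and 2442.38 to 2809.31 TPM in young libraries, and 0 of the 12 were at 0 throughout either age. Markers of other cells were present too, and several of their sums were higher in old libraries. The 9 Schwann cell markers, none at 0 throughout an age, summed to 423.84 to 1337.69 TPM in old and 84.73 to 162.63 TPM in young libraries, and all 9 had the higher mean in old ones. The 9 fibroblast markers (Pi16 at 0 in all libraries) summed to 1398.77 to 2002.79 TPM in old and 1081.79 to 1266.30 TPM in young libraries. Of the 8 averaging 1 TPM or more, 6 had the higher mean in old libraries and 2 the lower (Col3a1 and Dpt). All old libraries exceeded all young ones in 3 of them and lay below them in 1 (Col3a1), beside 5.85% and 4.16% of all genes. The 6 tenocyte markers (Scx and Comp at 0 in all young libraries) summed to 68.72 to 81.45 TPM in old and 9.76 to 29.06 TPM in young libraries. The 6 endothelial markers (Tie1 and Egfl7 at 0 in all libraries) summed to 38.81 to 60.22 TPM in old and 19.06 to 33.26 TPM in young libraries. The 5 smooth muscle and pericyte markers, none at 0 throughout an age, summed to 388.98 to 774.68 TPM in old libraries. In young libraries their sum was 375.18 to 562.34 TPM. All old libraries exceeded all young ones in 3 of the 5, beside 5.85% of all genes. The mean was higher in old libraries for 4 of the 5 and lower for 1 (Rgs5, log2 difference -1.26). The 6 muscle fibre markers (Ckm at 0 in all old libraries) summed to at most 49.27 TPM in old and at most 34.62 TPM in young libraries. Macrophages are rich in lysosomes. Their 14 markers summed to 12.94 to 56.99 TPM in old and 30.64 to 37.12 TPM in young libraries. In all old libraries 6 were at 0 (Cd14, Fcgr1, C1qa, C1qc, Tyrobp and Fcer1g). In all young libraries 8 were at 0 (Adgre1, Csf1r, Fcgr1, C1qa, C1qb, C1qc, Tyrobp and Fcer1g). Others were present. The mean log2(TPM + 1) of Lyz2 was 4.49 in old and 3.76 in young libraries, and that of Ptprc 2.61 and 3.66. The part of these other cells in the values below was not tested, and in bulk libraries fewer cells of a type and less RNA per cell cannot be told apart.

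In old against young libraries, most lysosomal genes and part of the ATG8 family had higher mean levels, while 6 of the 8 members that start autophagy or carry out ATG8 conjugation had lower ones, and no single gene passed the adjusted threshold. All 33 members passed the filter of a mean of at least 1 TPM, and 23 were higher and 10 lower in old libraries. The median difference of log2(TPM + 1) over the members was 0.35, against 0.00 over the 22492 genes tested, of which 49.6% were higher. With limma and Benjamini-Hochberg adjustment over all 22492 genes, 0 of the 33 members passed the threshold of 0.05, as did 0 genes in all (0%). At an unadjusted p under 0.05 there were 4 members, all higher in old libraries (Cln3, Map1lc3b, Tfeb and Lamp1), where 5.89% of all genes met that mark. In 9 members all old libraries exceeded all young ones, and in 0 members they lay below them all, where 5.85% and 4.16% of all genes did so. These were Cln3, Lamp1, Ctsd, Ctsl, Hexa, Tfeb, Map1lc3b, Gabarapl1 and Gabarapl2. Fewer libraries make such a separation easier. Without young library 3 it held for 10 members upward and 4 downward (9.09% and 9.25% of all genes), and without old library 1 for 14 upward and 1 downward (12.0% and 5.33%). Without old library 1 the member median was 0.54 and that of all genes 0.11.

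**Figure D1:**
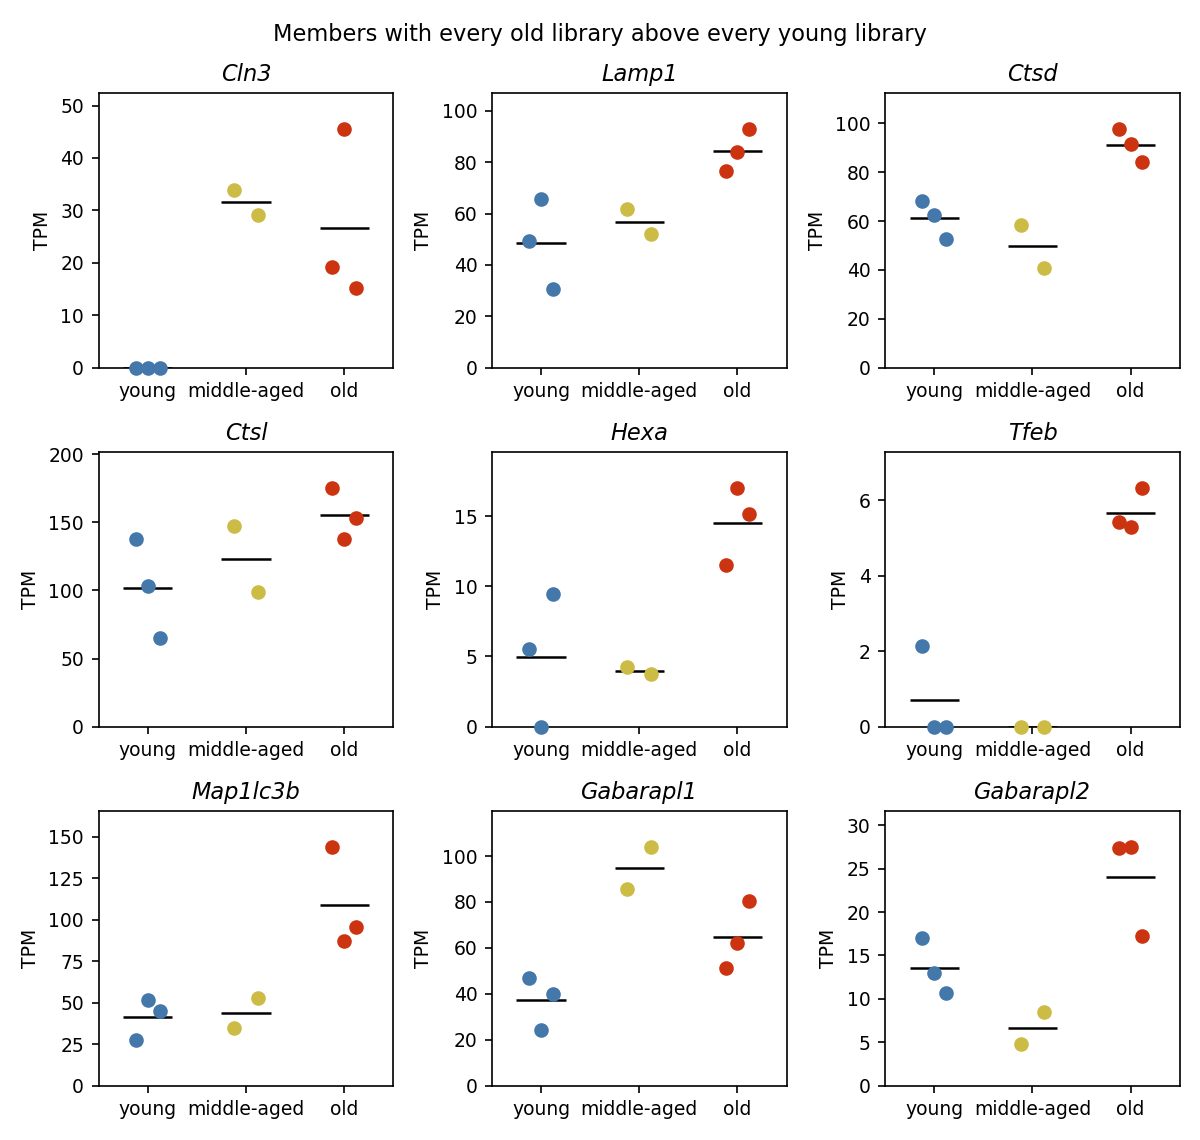
Levels in TPM (vertical axes, linear and starting at 0) of the 9 members whose old libraries all exceeded the young ones. Each point is a library, with 3 young, 2 middle-aged and 3 old, and the black line is the group mean. Both middle-aged libraries lie below all old ones for Lamp1, Ctsd, Hexa, Tfeb, Map1lc3b and Gabarapl2, and above all young ones for Cln3 and Gabarapl1.

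Of the 2 transcription factors, Tfeb was the one that separated the ages. Tfeb (chr17:47737030-47792419, plus strand, mm10) had 5.42, 5.29 and 6.32 TPM in old libraries, against 2.15, 0 and 0 TPM in young libraries. Both middle-aged libraries were listed at 0 as well, so Tfeb was above 0 in all 3 old libraries and in 1 of the other 5. These are low levels, and the difference of 2.18 on the log2(TPM + 1) scale (SE 0.87, limma adjusted p = 0.808) depends on the value added before the logarithm. Tfe3, its X-linked relative, had 14.07, 19.01 and 9.39 TPM in old libraries, against 15.25, 25.35 and 4.30 TPM in young libraries. The Tfe3 values of the ages overlapped fully, with a log2 difference of 0.16 (95% interval -1.34 to 1.65).

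The E-box that both factors bind has the core CACGTG, which reads the same on both strands and lies within the longer match TCACGTGA. RefSeq promoter windows of GRCm38.p6, from 250 bases before to 50 after each start, were at hand for 27 of the 33 members. The core was found in 11 of these 27 (Atg3, Atg5, Atg7, Cln3, Ctsa, Ctsd, Ctsf, Ctsl, Gaa, Lamp1 and Mcoln1), against 8.09% of the 27025 genes with a window. TCACGTGA was found in 5 of 27 members, against 1.12% of genes. A match describes the letters and does not show binding. The 6 members without a window are Map1lc3a, Atg16l1, Becn1, Npc1, Ctsb and Atg12. The stretches of the 4 members that have a core and also separate old from young libraries are shown on the strand of the gene, with each core in capitals. The Lamp1 stretch ends just before the annotated start and holds 4 cores in 70 bases, while those of Ctsd and Ctsl show the core nearest the start. The Ctsd and Ctsl stretches lie before the RefSeq start but within the span of the gene in GENCODE, and each meets an annotated exon. Both Cln3 cores lie before a RefSeq start within the gene and also meet annotated exons, and the window at its outer start has none.
Lamp1, chr8:13159091-13159160, plus strand: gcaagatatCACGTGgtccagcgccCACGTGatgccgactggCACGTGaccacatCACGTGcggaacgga
Ctsd, chr7:142387908-142387937, minus strand: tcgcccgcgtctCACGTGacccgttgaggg
Ctsl, chr13:64370739-64370768, minus strand: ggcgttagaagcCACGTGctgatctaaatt
Cln3, chr7:126583368-126583397, minus strand: gcaaccctcaagCACGTGatggaaggctca
Cln3, chr7:126583340-126583369, minus strand: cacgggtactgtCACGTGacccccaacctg
The core was found in members of both kinds. It was present in 4 of the 9 members whose old and young libraries were separate and in 7 of the 18 other members with a window. Mcoln1, Gaa, Atg3 and Atg7 carry it as well, and their old and young libraries overlapped. The Mcoln1 stretch also meets an annotated exon. The Atg7 stretch lies before a RefSeq start well within the span of the gene in GENCODE, and meets no annotated exon. The core nearest the start is shown for each, with flanking bases, Mcoln1 and Atg3 having 2 cores each.
Mcoln1, chr8:3500462-3500491, plus strand: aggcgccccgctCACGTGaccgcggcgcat
Gaa, chr11:119267811-119267840, plus strand: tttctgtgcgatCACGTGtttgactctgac
Atg3, chr16:45158746-45158775, plus strand: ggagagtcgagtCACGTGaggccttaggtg
Atg7, chr6:114670952-114670981, plus strand: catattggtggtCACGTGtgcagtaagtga

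Among the 5 lysosomal membrane genes, 4 had the higher mean in old libraries, and the median log2 difference was 0.52. Cln3 encodes the membrane protein whose loss causes juvenile neuronal ceroid lipofuscinosis (Batten disease). It lies at chr7:126571207-126585817 on the minus strand of mm10, and its exons meet those of Apobr on the other strand. Cln3 had 19.11, 45.47 and 15.24 TPM in old libraries, against a listed 0 in all 3 young libraries. It had the smallest p of the members, 2.45e-05 before adjustment and 0.172 after it (limma). Middle-aged libraries had 33.95 and 29.19 TPM, within the range of the old ones. With the young group at 0 no fold is given. Of 22492 genes, 3500 were listed at 0 in all young libraries, and 108 of those were above 0 in all other libraries. In the other direction, 3015 genes were listed at 0 in all old libraries.

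Lamp1 and Lamp2 encode the main glycoproteins of the lysosomal membrane, and LAMP2 also takes part in fusion with autophagosomes and in chaperone-mediated autophagy. Lamp1 (chr8:13159161-13175338, plus strand, exons shared with Grtp1 on the other strand) had 76.49, 84.06 and 92.82 TPM in old libraries, against 49.30, 65.52 and 30.67 TPM in young libraries. Its lowest old value was 1.17 times its highest young one, and the means differed 1.74-fold (log2 difference 0.85, SE 0.38, limma adjusted p = 0.833). Lamp2 was the most abundant member and did not follow Lamp1. It had 193.42, 204.24 and 185.57 TPM in old libraries, against 182.52, 155.18 and 274.17 TPM in young libraries, with a log2 difference of -0.03 (95% interval -0.72 to 0.66). The cholesterol exporter Npc1 averaged 27.9 ± 7.83 TPM in old and 21.4 ± 4.96 TPM in young libraries (SD, n = 3 each). The calcium channel Mcoln1, through which lysosomal calcium activates TFEB, averaged 30.5 ± 21.1 TPM in old and 22.99 ± 21.2 TPM in young libraries (SD, n = 3 each). For Npc1 and Mcoln1 the ages overlapped, and the spread of Mcoln1 was about as wide as its mean in young libraries.

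Of the 12 lumenal genes, 10 had the higher mean in old libraries, and 3 of these separated the ages. The median log2 difference was 0.58. Ctsd encodes cathepsin D, the main aspartic protease of lysosomes (chr7:142375911-142388038, minus strand, exons shared with the gene model Gm49369). It had 97.54, 91.41 and 84.34 TPM in old libraries, against 68.08, 62.49 and 52.79 TPM in young libraries (1.49-fold, log2 difference 0.57, SE 0.33, limma adjusted p = 0.839). Both middle-aged libraries, at 58.48 and 40.96 TPM, lay below every old one. Ctsl encodes cathepsin L, a cysteine protease (chr13:64359337-64370890, minus strand). It had 174.99, 138.02 and 153.45 TPM in old libraries, against 137.63, 102.92 and 65.12 TPM in young libraries (1.53-fold, log2 difference 0.66, SE 0.36, limma adjusted p = 0.839). The Ctsl ages were parted only narrowly, since old library 2 and young library 1 were nearly equal. Hexa, the alpha subunit of beta-hexosaminidase that is lost in Tay-Sachs disease (chr9:59539540-59565109, plus strand, exons shared with Tmem202), had 11.48, 16.98 and 15.13 TPM in old libraries, against 5.52, 0 and 9.44 TPM in young libraries. Its difference was 1.91 on the log2(TPM + 1) scale (SE 0.89, limma adjusted p = 0.833), with 1 young library listed at 0.

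The other 9 lumenal genes overlapped between the ages. Psap encodes the precursor of the saposins, which present sphingolipids to hydrolases. It had 73.10, 75.39 and 97.59 TPM in old libraries, against 71.27, 81.54 and 42.27 TPM in young libraries. Grn encodes progranulin, a lysosomal and secreted glycoprotein, and had 46.11, 39.08 and 53.68 TPM in old libraries, against 45.60, 63.89 and 39.89 TPM in young libraries. Neither Psap (log2 difference 0.37, 95% interval -0.44 to 1.18) nor Grn (-0.09, -0.98 to 0.81) differed beyond the spread between libraries. Gaa, the acid alpha-glucosidase that degrades glycogen and is lost in Pompe disease, averaged 24.6 ± 11.9 TPM in old and 8.64 ± 2.72 TPM in young libraries (SD, n = 3 each; log2 difference 1.31, limma adjusted p = 0.839). Old library 1 lay within the young range of Gaa. Cathepsin Z was the lumenal gene with the lowest difference: Ctsz averaged 37.05 ± 11.02 TPM in old and 55.2 ± 15.3 TPM in young libraries (SD, n = 3 each; log2 difference -0.57, 95% interval -1.52 to 0.38). Cathepsin B (Ctsb) averaged 58.2 ± 11.4 TPM in old and 45.9 ± 4.52 TPM in young libraries, and the cholesterol carrier Npc2 15.6 ± 0.49 and 15.2 ± 4.66 TPM in old and young ones (SD, n = 3 each). The protective protein Ctsa averaged 31.7 ± 8.95 TPM in old and 20.9 ± 7.37 TPM in young libraries (SD, n = 3 each). By mean over the 8 libraries, cathepsin K (Ctsk), best known from osteoclasts, was the lowest member, and cathepsin F (Ctsf) ranked 28 of 33. Their means were 3.88 and 15.8 TPM in old libraries, against 0 and 5.30 TPM in young libraries. Each was listed at 0 in at least 1 library.

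The ATG8 family divided into members that were higher in old libraries and members that were not. Map1lc3b encodes LC3B, the usual marker of autophagosomes (chr8:121590361-121598760, plus strand, exons shared with Zcchc14 and a gene model). It had 143.67, 87.05 and 95.86 TPM in old libraries, against 27.80, 51.37 and 44.74 TPM in young libraries. The lowest old value was 1.69 times the highest young one, and the means differed 2.64-fold (log2 difference 1.39, SE 0.40, 95% interval 0.51 to 2.26, limma adjusted p = 0.638). Gabarapl1 (chr6:129533160-129542346, plus strand) had 51.24, 62.35 and 80.46 TPM in old libraries, against 46.97, 24.46 and 40.13 TPM in young libraries (1.74-fold, log2 difference 0.81, SE 0.38, limma adjusted p = 0.833). Gabarapl2 (chr8:111940703-111953612, plus strand) had 27.40, 27.46 and 17.27 TPM in old libraries, against 17.02, 12.94 and 10.62 TPM in young libraries (1.78-fold, log2 difference 0.78, SE 0.51, limma adjusted p = 0.839). For Gabarapl2 the lowest old and the highest young library were nearly equal.

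The other ATG8 genes and the cargo receptor overlapped between the ages. Gabarap had 30.39, 74.45 and 75.86 TPM in old libraries, against 50.17, 34.65 and 65.03 TPM in young libraries. Map1lc3a, which encodes LC3A, had 0, 37.05 and 4.53 TPM in old libraries, against 22.36, 30.52 and 0 TPM in young libraries. For both genes the values of each age lay across those of the other. Sqstm1 encodes p62, which binds ubiquitinated cargo and LC3 and is itself degraded by autophagy, so that its protein can change without its transcript. It had 243.67, 162.15 and 102.98 TPM in old libraries, against 172.58, 184.82 and 101.94 TPM in young libraries (log2 difference 0.11, 95% interval -0.81 to 1.02). Sqstm1 was the second most abundant member after Lamp2, and its order among the libraries did not follow age.

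Of the 8 members upstream of the ATG8 proteins, 2 had higher and 6 lower means in old libraries, and in all 8 the ages overlapped. The other genes of these steps did not lean that way, with 11 of 18 other initiation genes and 4 of 6 other conjugation genes higher in old libraries. In the initiation set the median log2 difference was -0.10. The kinase Ulk1, which starts autophagy under mTORC1 and AMPK control, averaged 26.2 ± 7.66 TPM in old and 37.8 ± 15.6 TPM in young libraries (SD, n = 3 each). Becn1, the beclin subunit of the lipid kinase that marks the new membrane, averaged 25.3 ± 9.92 TPM in old and 21.2 ± 5.38 TPM in young libraries, and Wipi2, which binds the lipid so made, 11.7 ± 1.31 and 13.6 ± 7.003 TPM in old and young ones (SD, n = 3 each). For each of the 3 genes the 95% interval of the difference includes 0. In the conjugation set the median log2 difference was -0.32, and 4 of 5 members were lower in old libraries. The activating enzyme Atg7 averaged 25.2 ± 9.80 TPM in old and 30.9 ± 8.55 TPM in young libraries, and the transfer enzyme Atg3 25.6 ± 3.06 and 32.7 ± 6.55 TPM in old and young ones (SD, n = 3 each). Atg16l1 and Atg5, subunits of the complex that places LC3 on the membrane, averaged 16.1 ± 7.85 and 2.02 ± 1.34 TPM in old libraries, against 24.8 ± 9.94 and 4.64 ± 2.59 TPM in young libraries (SD, n = 3 each). Atg12, the ubiquitin-like partner of ATG5, was the exception at 10.1 ± 4.57 TPM in old and 4.97 ± 4.35 TPM in young libraries (SD, n = 3 each).

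**Figure D2:**
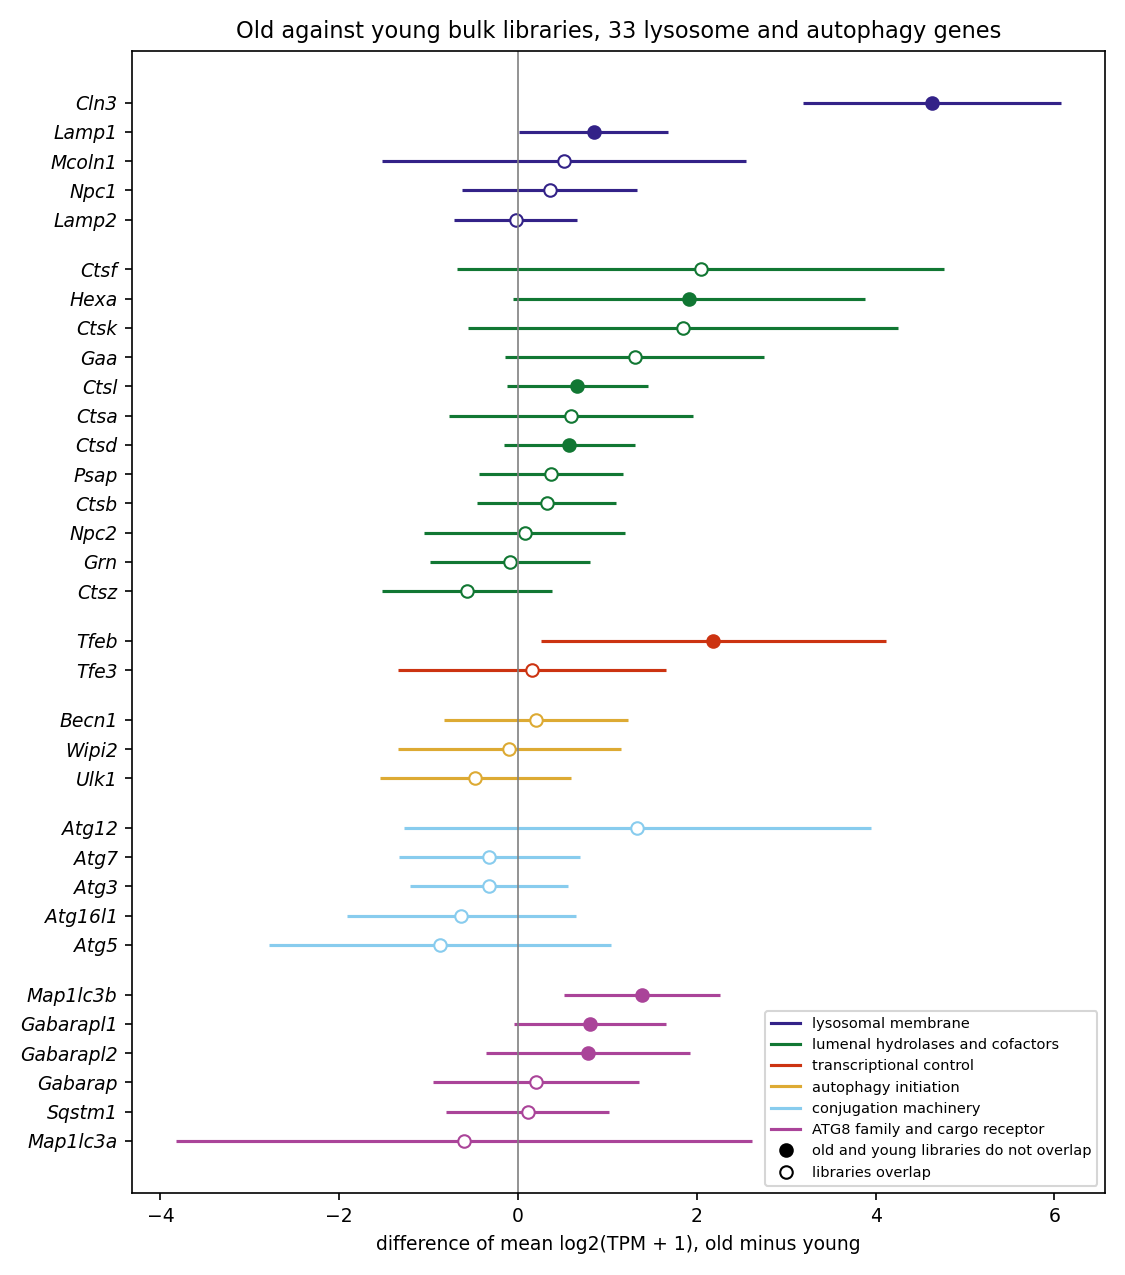
Difference of mean log2(TPM + 1), old minus young, for each of the 33 members, grouped by role. Points are limma estimates and lines their 95% intervals, and filled points mark members whose old and young libraries do not overlap. Cln3 and Ctsk were listed at 0 in all young libraries, so their estimates depend on the value added before the logarithm.

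Summed within each role, the TPM of the members show how much of the library each step took. The 5 membrane genes summed to 356.08 to 372.15 TPM in old and 252.14 to 333.80 TPM in young libraries. The 12 lumenal genes summed to 533.77 to 616.23 TPM in old and 326.13 to 505.51 TPM in young libraries, and the ATG8 genes with Sqstm1 to 376.96 to 496.37 TPM in old and 262.46 to 338.76 TPM in young libraries. In these 3 roles the old sums lay above the young sums without overlap. For the membrane genes and the ATG8 group this depended on single genes. The membrane sums of the ages overlap when Cln3, Lamp1 or Mcoln1 alone is left out. The ATG8 sums overlap when Map1lc3b, Gabarapl1 or Gabarap alone is left out. The initiation genes summed to 51.53 to 80.36 TPM in old and 59.45 to 86.11 TPM in young libraries, and the conjugation genes to 58.98 to 94.40 TPM in old and 82.68 to 114.93 TPM in young libraries, both with overlap. In every library the 5 conjugation genes summed to less than the 6 genes of the ATG8 group.

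**Figure D3:**
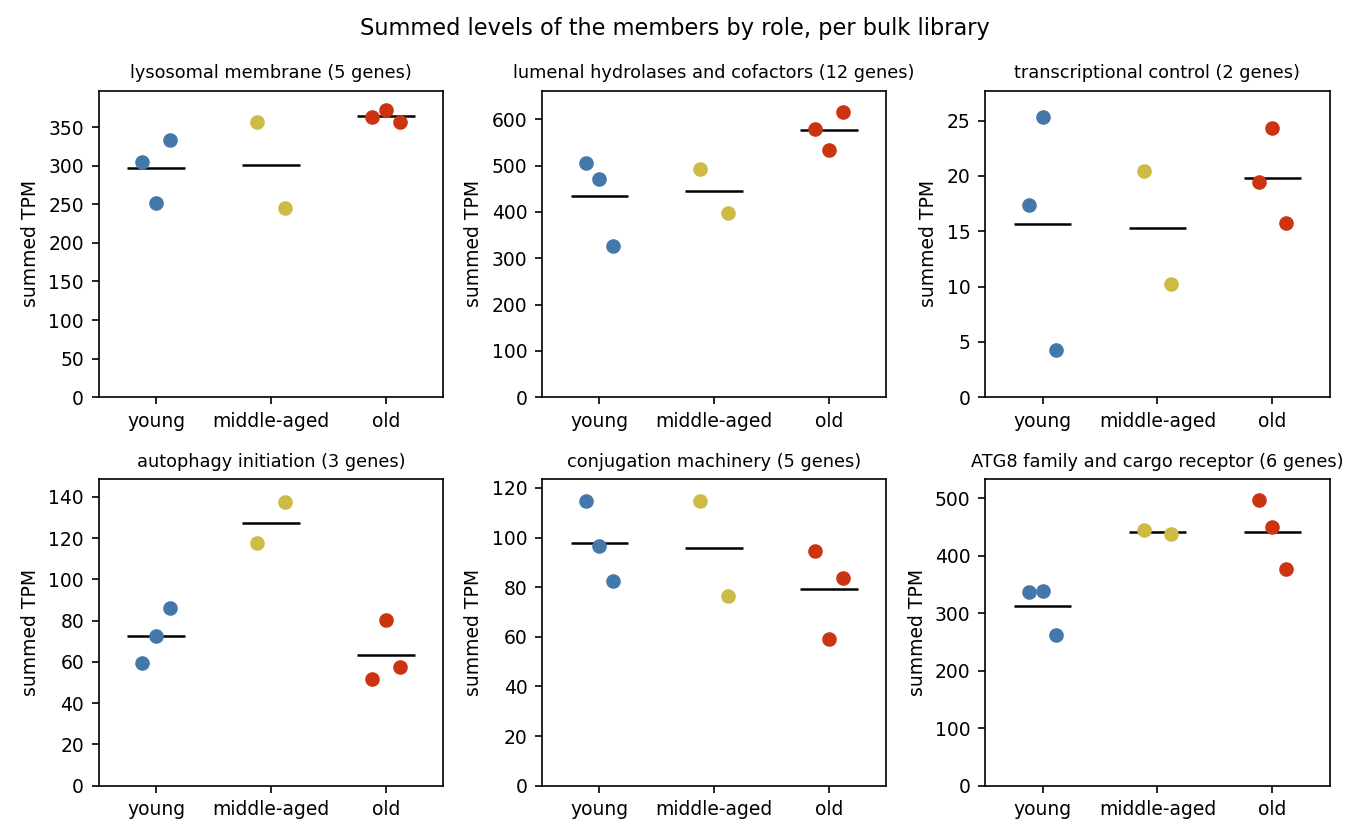
Summed TPM of the members of each role (vertical axes, starting at 0) in each of the 8 bulk libraries, with group means as black lines. Old libraries lie above young ones for membrane, lumenal and ATG8 genes, and middle-aged libraries lie highest for the 3 initiation genes. The membrane sums of old and young libraries overlap when Cln3, Lamp1 or Mcoln1 alone is left out. The ATG8 sums overlap when Map1lc3b, Gabarapl1 or Gabarap alone is left out.

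Other genes of the same pathways were examined as 8 lists of 156 genes in all, of which 152 passed the filter. In old against young libraries 96 were higher and 56 lower, with a median log2 difference of 0.27, and by limma 0 passed the adjusted threshold. All old libraries exceeded all young ones in 11 of them and lay below them in 2, beside 5.85% and 4.16% of all genes. Other lysosomal membrane proteins had 12 of 16 higher (median 0.51), other hydrolases 23 of 36 (0.35), cargo receptors and fusion proteins 16 of 23 (0.47), and subunits of the vacuolar ATPase, the proton pump that acidifies lysosomes, 10 of 16 (0.17). Genes that sort enzymes to lysosomes, such as the mannose 6-phosphate receptors, had the lowest balance, with 4 of 13 higher (median -0.23). The median was 0.18 for other initiation genes and 0.59 for other conjugation genes, and nutrient sensing genes had 16 of 24 higher (0.23). At an unadjusted p under 0.05 there were 3 of the 152 genes (1.97%), fewer than the 5.89% of all genes that met that mark. All 3 were higher in old libraries. The acid sphingomyelinase Smpd1 had 15.62, 9.34 and 8.89 TPM in old libraries, against 0, 0 and 4.75 TPM in young libraries (limma adjusted p = 0.781). The autophagy receptor Tax1bp1 had 110.21, 105.74 and 89.41 TPM in old libraries, against 46.67, 87.81 and 47.51 TPM in young libraries (log2 difference 0.80, limma adjusted p = 0.833). Lamtor2, a subunit of the Ragulator complex that anchors mTORC1 at lysosomes, had 19.74, 19.81 and 7.37 TPM in old libraries, against 0, 0 and 13.61 TPM in young libraries (limma adjusted p = 0.831).

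In middle-aged libraries the members were evenly divided against young ones. Of the 33, 17 were higher and 16 lower than in young libraries, with a median log2 difference of 0.09 where all genes had 0.18. Limma called 0 members at an adjusted p under 0.05, and 1 gene of 22492 (0.00445%), the kinase gene Mapkapk3, which is no member and was named after its values were seen. At an unadjusted p under 0.05 there were 4 members (7.78% of all genes). Both middle-aged libraries lay above all young ones in 6 members (Cln3, Becn1, Gabarapl1, Gaa, Atg7 and Ctsb) and below in 3 (Atg5, Atg16l1 and Gabarapl2), where 12.6% and 5.37% of all genes did so. Leaving out young library 3, such a separation held for 7 members upward and 9 downward (16.3% and 10.3% of all genes). Leaving out middle-aged library 1, it held for 10 upward and 9 downward (26.2% and 16.5%). Leaving out middle-aged library 2, it held for 12 upward and 4 downward (36.4% and 9.60%). Gabarapl1 had 85.46 and 103.83 TPM in middle-aged libraries, against 46.97, 24.46 and 40.13 TPM in young libraries (log2 difference 1.37, SE 0.43, limma adjusted p = 0.406). Becn1 had 63.31 and 47.26 TPM in middle-aged libraries, against 23.87, 14.99 and 24.68 TPM in young libraries (log2 difference 1.36, SE 0.52, limma adjusted p = 0.550). Both genes were higher in middle-aged than in all old libraries as well. Cln3 had a limma adjusted p of 0.0901 against young libraries, and passed the threshold with middle-aged library 1 or middle-aged library 2 left out, when 599 and 884 genes did. Macrophage markers summed to 87.83 to 119.91 TPM in middle-aged libraries, above every library of the other ages. Schwann cell markers summed to 174.63 to 332.92 TPM and tenocyte markers to 64.44 to 91.38 TPM, above every young library. The sums of the other non-stem cell types overlapped with those of young libraries. Of the 12 stem cell markers 11 were lower than in young libraries. The part of these cells in the values was not tested.

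Old libraries were also set against middle-aged ones. Of the 33 members 20 were higher and 13 lower, with a median log2 difference of 0.36 where all genes had -0.09. Among the 17 membrane and lumenal genes 14 had the higher mean in old libraries (median 0.49), and among the 14 autophagy genes 5 (median -0.16). Of the 17, 9 changed sign under at least 1 alternative setting. By limma 0 members and 0 of all genes (0%) passed the adjusted threshold, with 5 members at an unadjusted p under 0.05 (6.19% of all genes). All old libraries lay above both middle-aged ones in 9 members (Map1lc3b, Gabarapl2, Tfeb, Ctsd, Hexa, Atg5, Lamp1, Npc2 and Psap) and below in 4 (Becn1, Ulk1, Atg7 and Gabarapl1), where 7.15% and 12.8% of all genes did so. With middle-aged library 1 left out, such a separation held for 17 members upward and 6 downward (20.9% and 26.8% of all genes). With middle-aged library 2 left out, it held for 10 upward and 10 downward (13.4% and 38.4%). In that last case the member median was -0.14 where all genes had -0.23. Gabarapl2 had 27.40, 27.46 and 17.27 TPM in old libraries, against 4.76 and 8.46 TPM in middle-aged libraries (log2 difference 1.73, SE 0.58, limma adjusted p = 0.683). Map1lc3b had 34.57 and 52.69 TPM in middle-aged libraries, so that its old libraries stood above those of both younger ages (log2 difference 1.30, SE 0.44, limma adjusted p = 0.693). The comparison with young and that with middle-aged libraries share the old libraries and are not independent. Ulk1 had 26.65, 33.58 and 18.28 TPM in old libraries, against 38.24 and 80.53 TPM in middle-aged libraries, and Atg7 34.95, 15.36 and 25.37 TPM in old ones against 60.68 and 40.10 TPM in middle-aged ones. The 3 initiation genes were all lower in old than in middle-aged libraries, with a median log2 difference of -1.10.

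Single wells gave the share of wells in which each member was found. The wells came from 1 mouse per age, and library index and age cannot be told apart, so no test between ages was made. Most old wells held little RNA of the cell. Spike-in RNA took a median of 95.6% of TPM in old and 66.6% in young wells, and a median of 64 genes (3 to 2950) was found at 1 TPM or more in old and 1854 (7 to 3621) in young wells. At least 1000 genes were found in 7 of 31 old wells and 54 of 64 young wells, and the shares that follow are of these wells. Pax7 was found in 5 of the 7 old and 38 of the 54 young wells, and Myf5 in 7 and 50. Macrophage markers were found in 0 old wells and in 1 young well, which held Fcer1g alone. Markers of Schwann cells, fibroblasts and the other cell types were not examined in wells. A lysosomal member was found in 7 of 7 old and 53 of 54 young wells. A well held a median of 10 members (3 to 16) in old and 9 (5 to 18) in young wells, and an ATG8 gene was found in 5 of 7 old and 54 of 54 young wells.

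In young wells 6 members were found in more wells than not. They were Gabarap and Map1lc3b in 42 of 54 wells each (77.8%, exact 95% Clopper-Pearson interval 64.4 to 87.96%), Ctsb in 41, Lamp2 and Sqstm1 in 40 each, and Ctsl in 39 (72.2%, 58.4 to 83.5%). Next came Gabarapl2 in 25 wells and Gabarapl1 in 23. The 8 initiation and conjugation members were found in 3 (Atg12) to 15 (Wipi2) wells, with Becn1 in 9 and Atg3 in 8. Among lysosomal members Ctsz was found in 22 wells, Lamp1 and Grn in 10 each, Npc1 and Ctsf in 5 each and Mcoln1 in 2. Gabarap and Map1lc3b were found together in 32 of 54 wells, where the product of their shares gives 32.7. Other pairs lay on either side of that product, with 32 wells against 28.9 for Sqstm1 and Ctsl, 14 against 10.6 for Gabarapl2 and Gabarapl1, and 29 against 31.1 for Map1lc3b and Sqstm1. These pairs were chosen after their values were seen and were not tested. At most 10% of these wells held 13 of the members. Tfeb was found in 0 of the 54 (exact 95% Clopper-Pearson interval 0 to 6.60%), and in 0 of all 31 old and 64 young wells. Cln3, listed at 0 in the young bulk libraries, was found in 4 of the 54 young wells (7.41%, 2.06 to 17.9%). Its values there were 54.28 to 1805.29 TPM after rescaling without spike-ins and entries with no ID, mitochondrially encoded genes being kept. The transcript was thus found in cells of the other young mouse. Sqstm1 had the highest mean in these wells, 1053.02 TPM on that rescaled scale, with values of 2.85 to 6558.25 TPM where it was found.

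Abundance in bulk and presence in wells went together loosely. Over the 33 members the mean TPM of the young bulk libraries and the share of young wells had a Spearman rho of 0.67, as a description across genes that share libraries. Members of like bulk level still differed, since Lamp1 and Grn, at bulk means of 48.5 and 49.8 TPM, were each found in 10 of 54 young wells and Gabarap, at 49.95 TPM, in 42. Members found per well also followed the number of genes found (Spearman rho 0.566 over 54 wells).

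**Figure D4:**
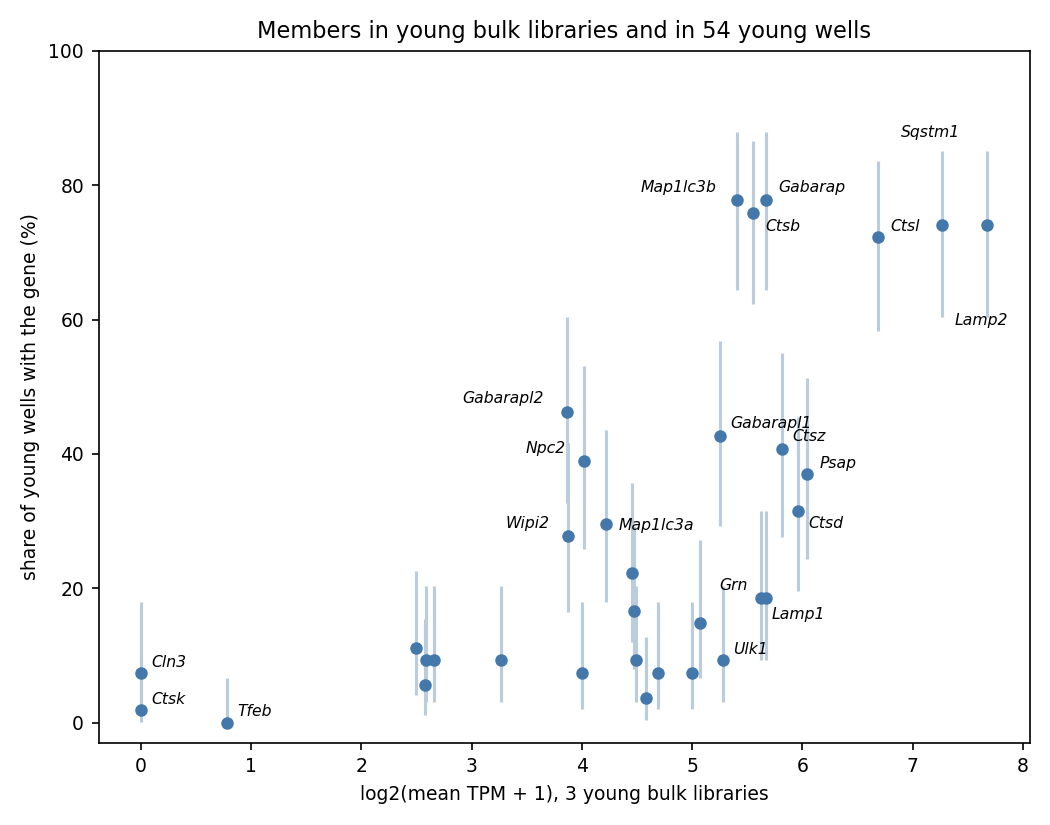
Share of the 54 young wells with at least 1000 genes that hold each member at 1 TPM or more (vertical axis, percent, with exact 95% Clopper-Pearson intervals) against log2(mean TPM + 1) of the 3 young bulk libraries (horizontal axis). Each point is 1 of the 33 members, and 6 lie clear above the others, whereas Cln3 and Ctsk are at 0 in bulk and found in 4 wells and 1 well.

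Lower shares in old wells came together with fewer genes per well, and no order between the ages is read from them. Over all wells the share with a gene was lower in the old mouse for every member except Tfeb, which was found in neither, and most so for Ctsb (4 of 31 against 42 of 64 wells), Lamp2 (4 against 41), Gabarap (6 against 43) and Map1lc3b (6 against 42). With all wells the median difference of mean log2(TPM + 1) was -1.24 over the 18 members found in at least 10% of wells, where all such genes had -0.97. With wells of at least 1000 genes it was -0.09, where all such genes had -0.25. In those wells Ctsl was found in 7 of 7 old (exact 95% Clopper-Pearson interval 59.04 to 100%) and 39 of 54 young wells (58.4 to 83.5%), and Map1lc3b in 4 of 7 (18.4 to 90.1%) and 42 of 54 (64.4 to 87.96%). The intervals overlap, cover counting error between wells only, and leave 9 members at 0 of 7 old wells. In the 24 old wells with fewer genes Sqstm1 was found in 3 and Ctsl in 0.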

How the data were processed

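Per the labels' protocols, RNA came from a Qiagen RNeasy micro preparation, cDNA from NuGEN Ovation amplification and libraries from a TruSeq kit. STAR and mm10 are named in the submitters' processing notes. Not given in the sources used here are the STAR version, annotation, strandedness and the tool that made the TPM, so reads of overlapping genes, 12 members among them, may be divided between genes. The deposited values are TPM, per the labels, and were used as deposited. Column totals of the bulk table were 999999.2 to 1000000.9. TPM are shares, so higher values of some genes lower others, and read depth is unknown. Spike-ins (92) and 2423 entries with no gene ID were left out of the tests. Gene positions came from GENCODE vM21, which held 42782 of 43283 IDs.

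In bulk, log2(TPM + 1) of genes averaging 1 TPM or more was tested with limma 3.58.1 (R 4.3.3), using all 8 libraries, a mean per age, an intensity trend, two-sided moderated tests and Benjamini-Hochberg adjustment at 0.05. The fit was tried on simulated data, with 200 genes picked in each run for a set change, which could be none. The simulated spread was smaller than that of the data and equal for all genes. That check therefore does not show which changes could be found at the real spread. Because 1 is added before the logarithm, differences on this scale understate the change of low genes. Each age has only 2 or 3 libraries. Replicate numbers did not pair libraries (r of -0.012 to 0.005 between libraries of the same number after removal of group means). A well held a gene at 1 TPM or more, and intervals are exact Clopper-Pearson ones at 95%. Alternatives were other added values and filters, rescaling, quantile normalization, a 2-group fit, no trend, a replicate block and leaving out each library. The rescaling among these alternatives left out spike-ins, mitochondrially encoded genes and entries with no ID. Python 3.11.15, pandas 2.3.3 and scipy 1.17.1 were used. Library values are given in full for members that separated old from young, the most abundant ones and a set of main lysosomal and autophagy genes. The members and lists were chosen with earlier results of these data known.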

Additional observations from a re-analysis of the deposited data

How the results depend on the processing

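For old against young libraries, limma called 0 genes under all 17 alternatives, and the member median, 0.35 as reported, was 0.30 to 0.54 and above 0 in all of them. The sign changed in at least 1 alternative for 9 of the 33 members and for 0 of the 9 without overlap, whose number was 9 to 15 with 1 library left out. For middle-aged against young libraries the reported call of 1 gene became 7 with 0.1 added before the logarithm, 2 with a mean of at least 5 TPM, 5 with quantile normalization and 12 without the trend. It became 0 with 5 added, no filter, rescaling, or only the 2 groups. The member median was -0.19 with quantile normalization, which moved that of all genes to 0.00. With 1 library left out the calls ranged from 0 to 884, members without overlap from 9 to 19 and the median from -0.16 to 0.32. For old against middle-aged libraries calls were 6 with 0.1 added, 1 with quantile normalization and 0 to 799 with 1 library left out. Members without overlap then numbered 13 to 23, and the median was -0.14 to 0.50. In each comparison, leaving out a library of either age compared also raised the share of all genes without overlap. A single middle-aged library is assumed to vary like the other groups, and the cause of these shifts was not tested. With a replicate block, although the numbers do not pair the libraries, calls were 0 in each comparison, the old against young median was 0.35, that for middle-aged against young 0.00, and 2 members had an unadjusted p under 0.05 for old against young. For wells the median difference of -1.24 was -2.05 with 0.1 added, -1.50 at 10 TPM or more, -0.0901 in wells of at least 1000 genes, -0.625 over all members found and -1.61 after rescaling. Rescaling and at least 1000 genes together gave 0.15, an alternative chosen after seeing the data. Low TPM limit the values of Tfeb, Ctsk and Atg5, and 7 old wells limit every share in old wells.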
